A study of Homo sapiens with 6 samples.

Results

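The 10 genes described here encode translation factors: the eIF4A helicases EIF4A1, EIF4A2 and EIF4A3, the scaffolds EIF4G1 and EIF4G2, the start codon factors EIF1 and EIF5, the elongation factors EEF1A1 and EEF2, and EIF5A. They are 10 of 20098 protein-coding genes on chromosomes 1 to 22 and X. EIF4A3 was selected on measured values, the −log10 q of a late cluster inside one of its introns, and the other members were listed with it as genes of the same function. Each gene was read over its hg19 gene body plus 5 kb on each side. These windows had a median length of 20.4 kb and summed to 225 kb, whereas the median over all protein-coding windows was 37.3 kb.

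END-seq ligates an adapter to the free ends of DNA double-strand breaks (DSBs), so that reads from the left side of a break pile up on the reverse strand and those from its right side on the forward strand. The cells were HCT116, an established human colorectal carcinoma line, and murine pre-B cells were added to every sample as a spike-in. There were 6 samples in 3 groups with 2 biological replicates per group. Cells of the Ctrl group were left untreated, those of CPT10 were given 10 µM camptothecin (CPT) for 10 min, and those of CPT20 were given the same dose for 20 min. The sample names write 10 and 20 as µM, whereas the treatment protocol gives these numbers as minutes, and the protocol was followed. The values come from the 4 CPT libraries, and Ctrl entered as the input of the authors' peak calling, so no value below has a matching untreated level.

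CPT traps topoisomerase I on DNA as it relaxes the supercoils made by transcription. A trapped enzyme can turn into a DSB when a polymerase, a replication fork or a nearby nick meets it. Translation factors bring ribosomes to mRNA, choose the start codon and move the ribosome along the message. They are housekeeping genes that dividing cells transcribe strongly, and many of them carry small nucleolar RNA genes in their introns. EIF4A3 differs from its relatives, because it is the helicase of the exon junction complex, which marks spliced mRNA in the nucleus.

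The lists differed in length from 286491 to 826744 peaks per strand, and the shortest were those of CPT20 replicate 2. Read totals were not used here, but the expected fragment height behind the deposited fold values ranged from 0.727 to 1.44 and stands for relative depth. For this reason each window was expressed relative to its own library, as peaks per kb (or bases under peaks) divided by the mean over all protein-coding windows. The lists hold 261 and 159 peaks in the windows of the 10 genes in CPT10 replicates 1 and 2, and 260 and 167 in CPT20 replicates 1 and 2.

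The leading late cluster of EIF4A3 lies at chr17:78118421-78119397 (hg19), a stretch of 977 bp wholly inside intron 1 of the canonical transcript, with its midpoint 2018 bp downstream of the 5′ end. EIF4A3 is on the minus strand (gene body chr17:78108168-78120950). A DSB site here means a reverse peak whose closest forward peak overlaps it or starts less than 150 bp to its right. Where sites of both replicates of a time overlap each other they form a cluster, which is late when no 10 min cluster overlaps it, transient when it is found at 10 min and no 20 min cluster overlaps it, and persistent when clusters of both times overlap. The middle of the cluster is printed below because it chose the gene list. Beside it stands the coding part of the middle of the leading transient cluster, in EIF5A. The middle of the leading persistent cluster, in EIF1, is untranslated sequence and is not printed. Both are plus-strand sequences from the GRCh37 primary assembly. In EIF4A3 the capitals mark the bases that lay between the reverse and the forward summit in both CPT20 libraries, and in EIF5A they mark coding bases.
EIF4A3, chr17:78118760-78119059: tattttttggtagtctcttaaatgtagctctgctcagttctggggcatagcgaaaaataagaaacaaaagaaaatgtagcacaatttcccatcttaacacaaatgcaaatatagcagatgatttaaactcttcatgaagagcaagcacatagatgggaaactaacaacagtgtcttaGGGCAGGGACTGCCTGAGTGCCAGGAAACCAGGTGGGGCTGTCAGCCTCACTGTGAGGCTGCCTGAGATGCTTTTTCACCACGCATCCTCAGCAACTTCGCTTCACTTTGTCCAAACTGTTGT
EIF5A, chr17:7212955-7213124: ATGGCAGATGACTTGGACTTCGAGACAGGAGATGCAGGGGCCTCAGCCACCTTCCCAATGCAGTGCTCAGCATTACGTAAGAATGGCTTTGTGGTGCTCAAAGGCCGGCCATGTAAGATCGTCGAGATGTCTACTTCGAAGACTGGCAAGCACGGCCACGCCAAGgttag
The EIF4A3 stretch is 43.3% G and C and the EIF5A stretch 54.1%. The capitals of EIF5A begin at a start codon.

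In EIF4A3 both CPT20 libraries held a tall peak on each strand. In CPT20 replicate 1 the forward and the reverse peak both reached 31 fragments, and in CPT20 replicate 2 they reached 25 and 27. The −log10 q of the site, which is the smaller value of its pair, was 28.9 in CPT20 replicate 1 and 24.2 in CPT20 replicate 2. Among all sites of these libraries it ranked 221 and 154. In both libraries the reverse summit lay to the left of the forward summit, by 198 bp and 275 bp, which is the order a break leaves.

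At 10 min the replicates were unlike each other. CPT10 replicate 1 held a site at the same place, with a forward peak of 22 fragments, a reverse peak of 32 and a −log10 q of 16.2, rank 928. There the forward summit was 198 bp to the left of the reverse summit, the opposite order. CPT10 replicate 2 had 1 reverse peak of 10 fragments (−log10 q 6.45) and no forward peak in the cluster, and the next forward peak to the right on the plus strand began 1470 bp away. The lowest forward peak in that list has 4 fragments. The late class of this cluster therefore rests on the missing forward peak of CPT10 replicate 2. Without CPT10 replicate 2 the same stretch was persistent, and in the other 9 alternatives tried it was late. These values selected the gene, so no test is given for EIF4A3.

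A second late cluster of EIF4A3, at chr17:78109668-78111141, had its midpoint in intron 9, ran across exons 10 and 11, and was much weaker. Its sites had a −log10 q of 2.14 and 4.90 in CPT20 replicates 1 and 2, and CPT10 replicate 2 held a site of 2.93. It was late in 4 of 10 alternatives. Over the whole window, peak density relative to all protein-coding windows was 2.58 and 1.93 at 10 min (replicates 1 and 2) and 2.31 and 3.58 at 20 min, so the times overlapped. Bases under peaks made up 23.4%, 11.5%, 28.2% and 14.6% of the window in the same order. The highest peak of the window had 32 and 15 fragments at 10 min and 31 and 27 at 20 min, and lay in the intron 1 cluster in every library but CPT10 replicate 2.

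**Figure D1:**
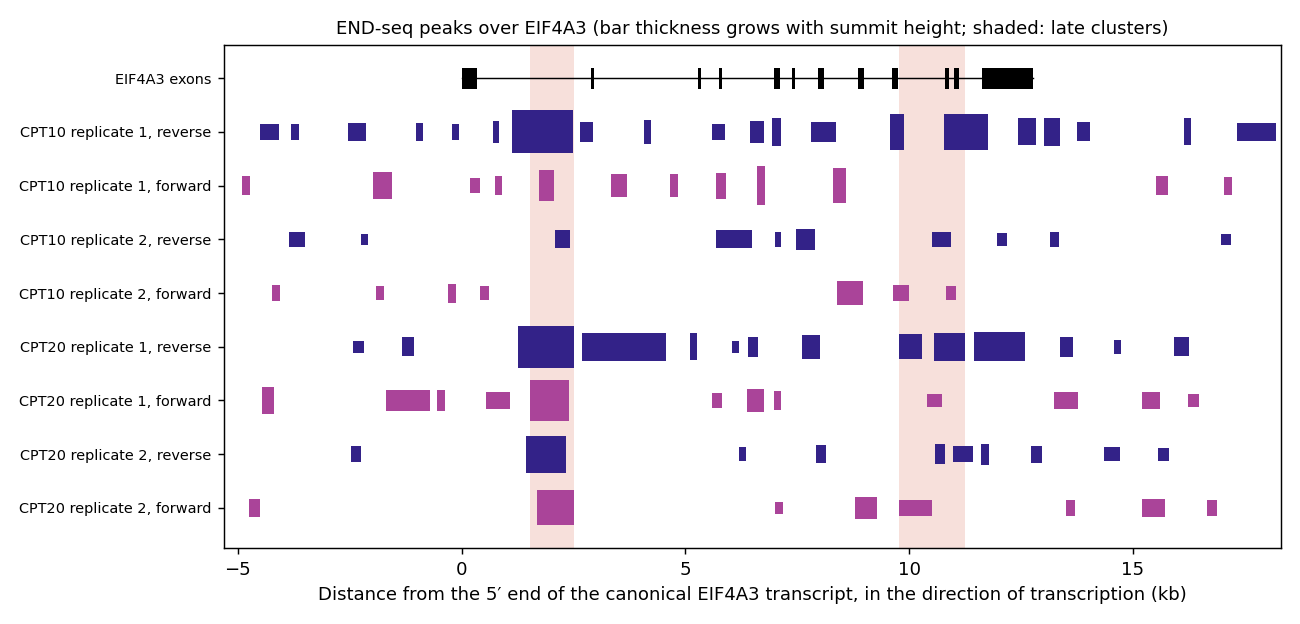
Peaks of the 8 lists over EIF4A3 by distance from the canonical 5′ end (kb, x axis), with 1 row per library and strand, bar thickness growing with summit height in fragments, exons on top and the late clusters shaded. Within the leading cluster both strands are peaked in both CPT20 libraries and in CPT10 replicate 1, whereas CPT10 replicate 2 has a reverse peak of 10 fragments alone there.

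The next question was how common clusters were over the 10 genes. A cluster of any class was present in 9 of 10 windows, against 16.9% of all protein-coding windows, and EIF4G1 was the exception. Persistent clusters were in 6 of 10 windows (3.81% of all), late clusters in 5 of 10 (8.78% of all) and transient clusters in 2 of 10 (8.95% of all). Because the genes were listed with these clusters known, the shares are given without a test. Per length, the member windows held 89.0 clusters per Mb, against 3.52 per Mb over all protein-coding windows. The 81 cytoplasmic ribosomal protein genes, the other part of the translation machinery, came to 88.9 clusters per Mb, with a cluster in 71 windows.

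Other translation factors had fewer. Of 37 other initiation factor genes, such as the subunits of eIF2 and eIF3, 14 held a cluster and 3 a persistent one. That list also takes in the eIF4E-binding proteins, which are repressors of initiation. Of 15 other elongation and termination factor genes, a list that also takes in modifying enzymes such as EEF2K, 5 held a cluster. Of 7 genes listed for the exon junction complex, which include UPF genes of mRNA decay, 1 held a cluster, a transient one. Median relative peak density in the CPT10 libraries was 2.01 ± 0.269 (SD, n = 2) over the 10 members. It was 2.21 ± 0.069 (SD, n = 2) over the ribosomal protein genes and 1.53 ± 0.283 (SD, n = 2) over the other initiation factors. The other elongation and termination factors had 1.39 ± 0.148 (SD, n = 2) and the exon junction complex list 1.37 ± 0.157 (SD, n = 2). Differences between the lists were not tested.

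**Figure D2:**
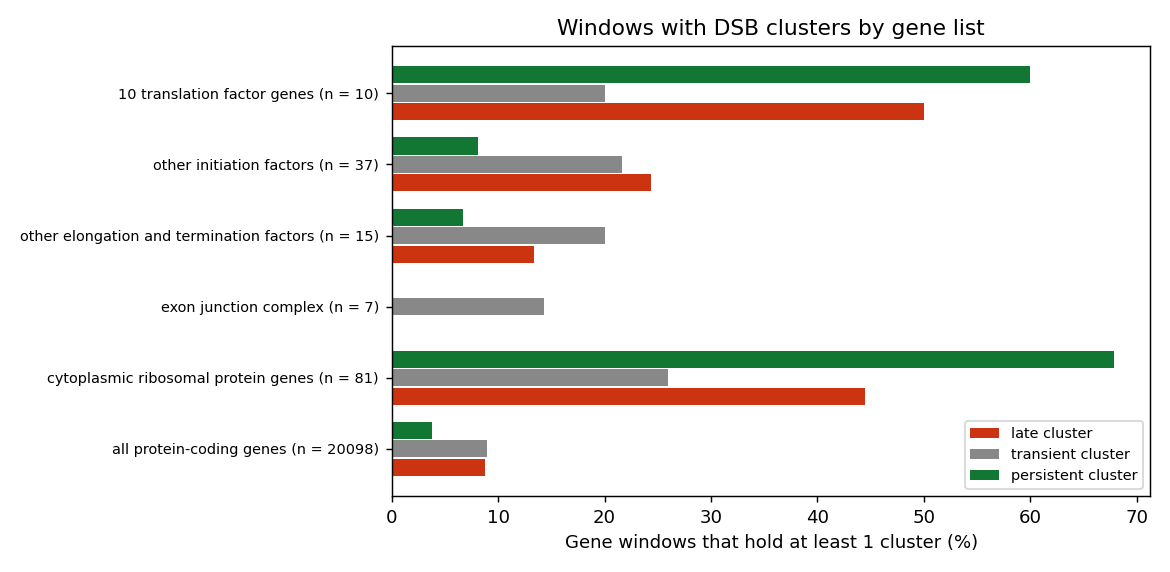
Share of gene windows with at least 1 persistent, transient or late cluster (%, x axis) for each gene list, with the number of windows in brackets. The 10 translation factor genes (60% with a persistent and 50% with a late cluster) lie near the ribosomal protein genes and above the other lists for these classes, and their transient share (20%) is like that of the other factor lists.

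The 10 windows held 20 clusters, of which 9 were persistent, 9 late and 2 transient. Of their midpoints, 10 lay in introns, 5 in exons, 3 downstream of the canonical transcript and 2 upstream of it. Persistent clusters were wide, with a median of 3562 bp against 1725 bp over the 931 persistent clusters of the genome. Late clusters had a median width of 1498 bp, against 821 bp genome-wide.

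The late class was seldom a plain absence at 10 min. Of the 9 late clusters, 8 overlapped a site of at least 1 CPT10 library, 6 of them in replicate 1 and 3 in replicate 2, against 49.2% of the 1899 late clusters of the genome. The remaining one was the late cluster of EIF4G2 at chr11:10822493-10822886. In EEF1A1 both CPT10 libraries held a site within the late cluster, and these sites formed no cluster with each other. Without CPT10 replicate 2, 3 of the 9 late clusters were still late. Neither transient cluster overlapped a site at 20 min, whereas 29.9% of the 2958 transient clusters of the genome did.

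**Figure D3:**
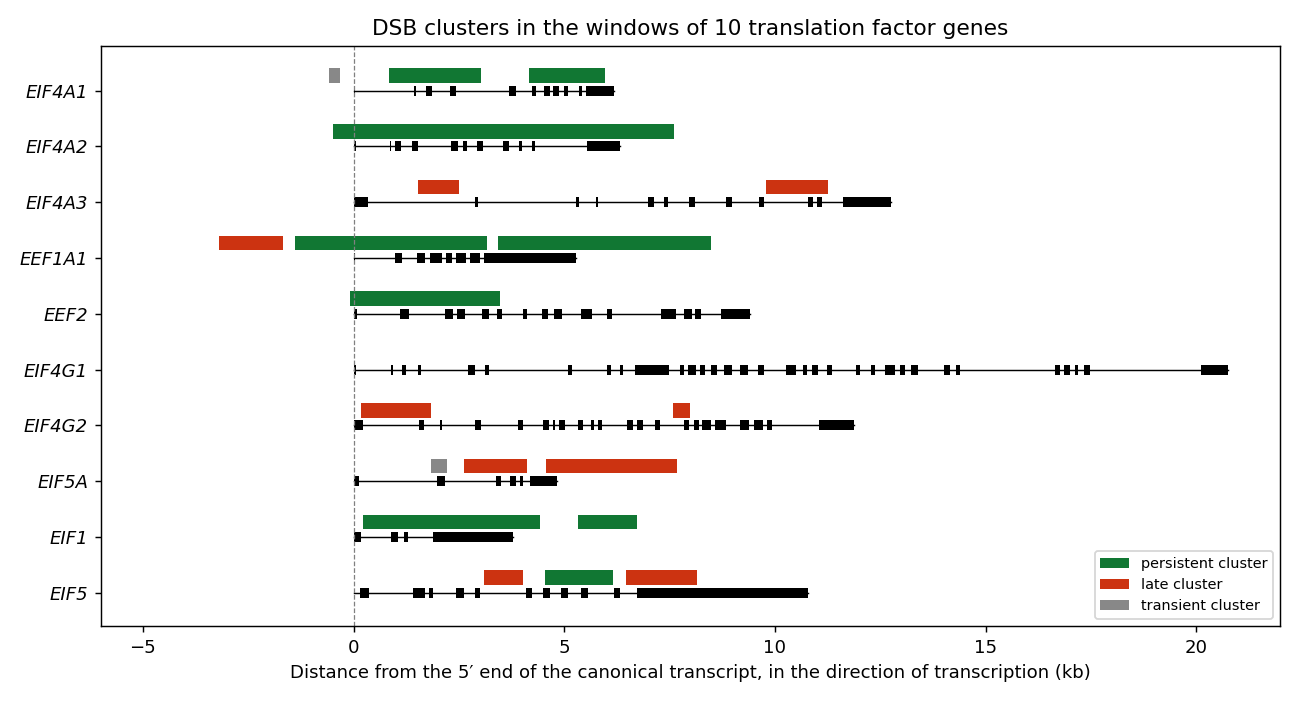
Persistent, late and transient clusters over the canonical transcripts of the 10 genes by distance from the 5′ end (kb, x axis), with exons as black boxes. EIF4G1 has none, EIF4A2 is covered by 1 persistent cluster from end to end, and EIF4A3 has 2 late clusters.

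Among the eIF4A helicases, which unwind the 5′ leader of mRNA for the ribosome, EIF4A2 had the highest coverage of all members. Peaks covered 41.0% and 30.02% of its window at 10 min and 45.6% and 35.7% at 20 min, so the times overlapped. A single persistent cluster of 8092 bp (chr3:186500872-186508963), the second of the list by rank, spanned the gene, which has 5 snoRNA genes annotated inside it. Its site −log10 q was 28.3 and 15.7 at 10 min and 33.1 and 30.2 at 20 min. Within its canonical transcript 71.2% and 64.2% of bases were covered at 10 min and 75.1% and 67.1% at 20 min. The 5 kb upstream had 14.4% and 5.95% at 10 min and 14.01% and 7.58% at 20 min, and the 5 kb downstream had 29.9% and 13.1% at 10 min and 43.2% and 26.7% at 20 min. The highest peak of the EIF4A2 window had 47 and 31 fragments at 10 min and 49 and 41 at 20 min, on the reverse strand in all 4 libraries. In CPT10 replicate 1 its summit was in the downstream flank, 8199 bp from the 5′ end and outside the cluster. In the other libraries the summit lay from 1178 to 1275 bp from the 5′ end.

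EIF4A1, the main helicase of cap-dependent initiation, held 2 persistent clusters. Bases under peaks were 27.3% and 11.7% of the window at 10 min and 31.97% and 18.9% at 20 min. Relative peak density was 2.27 and 1.91 at 10 min and 2.88 and 4.76 at 20 min, without overlap between the times. A transient cluster of 249 bp lay 452 bp upstream of the 5′ end (chr17:7475567-7475815), inside the SENP3-EIF4A1 readthrough gene, where the site −log10 q was 8.06 in CPT10 replicate 1 and 1.52 in CPT10 replicate 2. The reverse peak there reached 33 and 17 fragments at 10 min and the same heights at 20 min, and the forward peak, of 14 and 4 fragments at 10 min, was missing from both CPT20 lists. The highest peak of the EIF4A1 window had 38 and 17 fragments at 10 min and 36 and 20 at 20 min, with a different position in each library. Its summit lay inside the gene body only in CPT20 replicate 1, and in CPT10 replicate 1 it was in the downstream flank, 10932 bp from the 5′ end.

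EIF4G1, the scaffold that joins the cap-binding protein to eIF4A, had the lowest coverage of the members in every library. Bases under peaks were 14.2% and 7.96% at 10 min and 21.2% and 6.19% at 20 min. It had no cluster, and in CPT20 replicate 2 no paired site at all. Its highest peak reached 26 and 18 fragments in the CPT10 libraries and 32 and 14 in the CPT20 libraries. Its peaks leaned to the reverse strand in CPT20 replicate 2, where the forward share was 18.6% after each strand was divided by its list mean, against 37.3%, 49.7% and 39.3% in CPT10 replicates 1 and 2 and CPT20 replicate 1.

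EIF4G2, a relative that works in initiation without the cap, held 2 late clusters, both with midpoints in introns and both reaching over exons. The better ranked one (chr11:10828639-10830286, from exon 1 across exon 2) had a site −log10 q of 9.91 and 4.90 in CPT20 replicates 1 and 2 and of 4.76 in CPT10 replicate 1. Relative peak density was 2.35 and 1.53 at 10 min and 2.59 and 3.73 at 20 min, and the times did not overlap. The highest peak anywhere in the window had 39 and 27 fragments at 10 min against 41 and 19 at 20 min.

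EIF1, a small factor that keeps the scanning ribosome from starting at the wrong codon, had the best-ranked persistent cluster (chr17:39845366-39849562). The cluster covers nearly all of this gene of 4 exons, and its site −log10 q was 44.1 and 22.9 at 10 min and 33.5 and 18.5 at 20 min. Relative peak density was 2.13 and 2.997 at 10 min and 1.91 and 6.25 at 20 min, so CPT20 replicate 1 was the lowest and CPT20 replicate 2 the highest of the 4. The highest single peak of any member window was in the downstream flank of EIF1, a forward peak of 62 fragments with its summit 5117 bp from the 5′ end in CPT10 replicate 1, with 61 fragments at 5133 bp in CPT20 replicate 1. The remaining libraries peaked closer to the 5′ end, at 37 fragments in CPT10 replicate 2 and 27 in CPT20 replicate 2.

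EIF5, which triggers GTP hydrolysis once the start codon is found, held 2 late clusters and 1 persistent one. Coverage was 18.2% and 11.1% at 10 min and 32.4% and 13.1% at 20 min. Relative peak density was nearly equal in the replicates of each time, at 1.97 and 1.92 at 10 min and 3.20 and 3.17 at 20 min. Its highest peaks had 30 and 15 fragments at 10 min and 42 and 22 at 20 min, and that of CPT20 replicate 1 lay upstream of the 5′ end.

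EIF5A, a hypusine-carrying factor that helps ribosomes through difficult stretches, held 2 late clusters and the leading transient one (chr17:7212779-7213170). The transient site reached a −log10 q of 16.4 in the first CPT10 replicate and 2.19 in the other, and at 20 min a forward peak of 21 fragments in CPT20 replicate 1 was all that was left. The second-ranked late cluster of the list (chr17:7215523-7218633) overlapped the 3′ end of EIF5A and its midpoint fell in the neighbouring gene GPS2, with a site −log10 q of 18.8 and 5.81 at 20 min and of 6.30 in CPT10 replicate 1. Peaks in the EIF5A window were low in the second replicates, whose highest had 12 fragments at 10 min and 13 at 20 min, against 25 and 41 in the first replicates.

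EEF1A1, which delivers aminoacyl-tRNA to the ribosome, held 2 persistent clusters that reached past both ends of the canonical transcript. Within the canonical transcript 86.4% and 56.7% of bases were under peaks at 10 min and 66.3% and 71.0% at 20 min. Exons and introns were alike at 10 min, at 57.1% and 56.04% in CPT10 replicate 2, for example. At 20 min introns were covered more than exons. The values were 71.5% against 63.7% in CPT20 replicate 1 and 74.4% against 69.3% in CPT20 replicate 2. The annotation lists 48 EEF1A1 pseudogenes, so exonic reads with a second match may have been lost at the mapping filter, which was not tested. Its gene body in the annotation is far longer than the canonical transcript, and over that window coverage was 23.8%, 12.1%, 28.7% and 14.4%. The highest peak had 50 and 36 fragments at 10 min and 57 and 38 at 20 min, on the reverse strand each time.

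EEF2, the translocase of the ribosome, held 1 persistent cluster of 3562 bp at its 5′ end (chr19:3981990-3985551). Its site −log10 q was 18.6 and 9.57 at 10 min and 16.4 and 9.75 at 20 min. The highest peak in CPT20 replicate 1 was a forward peak of 51 fragments 2424 bp from the 5′ end, and in CPT10 replicate 1 a forward peak of 33 fragments stood 2440 bp from it. In the second replicates the highest peaks were lower, at 14 fragments at 10 min and 20 at 20 min.

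**Figure D4:**
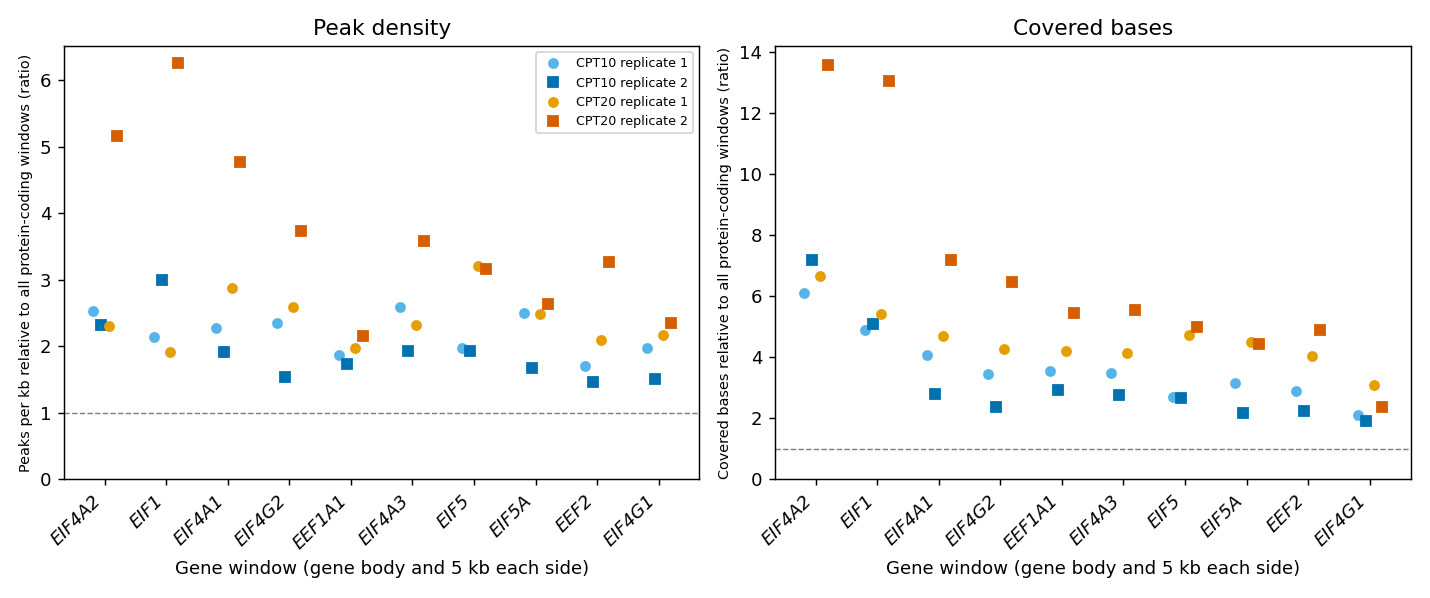
Relative peak density (left) and relative covered bases (right) of each gene window in the 4 libraries, as ratios to all protein-coding windows (dashed line at 1). Each point is 1 library, and all points lie above 1. CPT20 replicate 2, the library with the shortest lists, is the highest point for most genes. The exceptions are EIF5 on the left and EIF4G1 and EIF5A on the right.

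All 40 values of relative peak density, from 10 genes in 4 libraries, lay above 1. The median over all protein-coding windows was 1.01 at 10 min and 1.04 at 20 min. Of 40 values of relative coverage, 37 were above the 95th percentile of protein-coding windows. The remainder were EIF4G1 in both CPT10 libraries and in CPT20 replicate 2. The highest peak of a window lay downstream of the 5′ end, in the gene or in the flank past it, in 38 of 40 cases. It was on the reverse strand in 24 of 40. Most of each window lies downstream of the 5′ end, and the shares over all protein-coding windows are not given. Of the members, 4 lie on chromosome 17. Set against the peak density of the 1 Mb on either side of the window, all 40 ratios were above 1. Their medians were 1.998 and 1.71 at 10 min and 2.08 and 3.62 at 20 min. The share of all windows with a ratio above 1 is not given. For EIF4A3 the local ratio was 1.96, 1.59, 1.49 and 2.60.

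Within the windows, coverage rose at the 5′ end and stayed up along the transcript. From 5 to 4 kb upstream, 8.50% and 2.18% of bases per strand were under peaks at 10 min and 8.13% and 3.96% at 20 min. From 1 to 2 kb downstream the values in the same order were 53.4%, 44.4%, 63.8% and 45.6%, whereas the means over all genes were 10.1%, 6.57%, 12.8% and 5.75%. From 5 to 4 kb upstream the means over all genes were 7.14%, 4.05%, 7.92% and 2.62%, so coverage over all genes rose as well. Every member had more of its canonical transcript than of its upstream 5 kb covered, in each library. The share of all genes with this order, or with that for the downstream 5 kb, is not given. The downstream 5 kb were covered less than the transcript in 9, 10, 8 and 8 of 10 members, the exceptions being EIF4G1 in CPT10 replicate 1, EEF1A1 and EIF5A in CPT20 replicate 1, and EIF4A3 and EIF5A in CPT20 replicate 2.

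Neither exons nor introns were favoured throughout. Exons were covered more than introns in 6 of 10 members in both CPT10 libraries, in 4 in CPT20 replicate 1 and in 1 in CPT20 replicate 2. The same shares over all genes are not given. The first 2 kb of the gene body held 12.8%, 10.1%, 10.9% and 8.98% of member peaks, against 8.90% if peaks were spread evenly, ratios of 1.44, 1.13, 1.22 and 1.01. Over all windows the same ratios were 1.26, 1.19, 1.47 and 1.52, above those of the members in every library but CPT10 replicate 1. These shares count each peak once, whatever its width, from the 5′ end of the annotated gene body. In EEF1A1 that end lies upstream of the canonical 5′ end, from which coverage by distance was taken. The shares therefore do not measure how covered bases were concentrated.

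**Figure D5:**
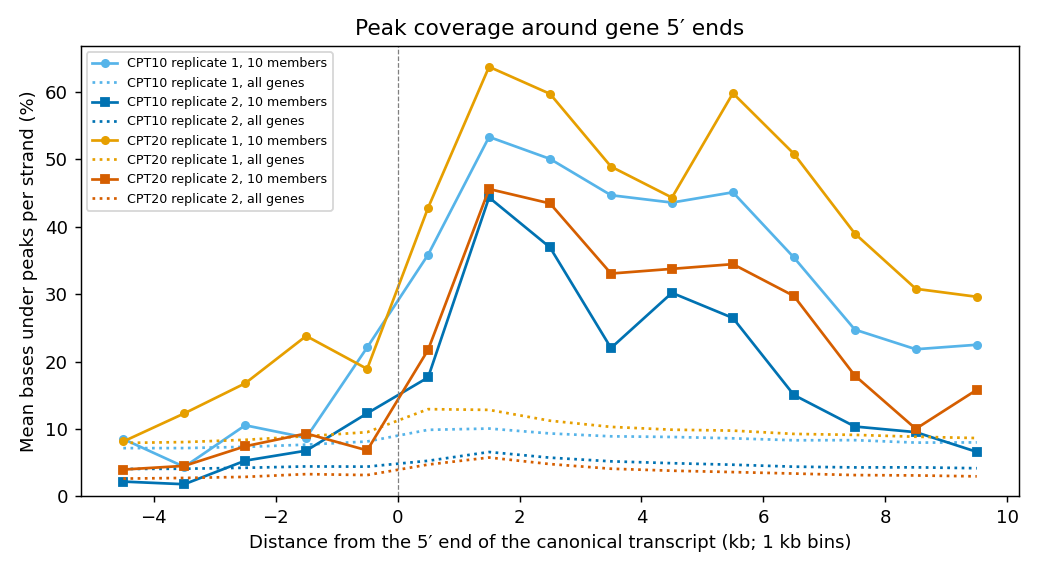
Mean share of bases under peaks per strand (%, y axis) in 1 kb bins from 5 kb upstream to 10 kb downstream of the canonical 5′ end, for the 10 members (solid) and all protein-coding genes (dotted), by library. The members rise to between 44.4% and 63.8% at 1 to 2 kb, and the genes as a whole stay at 12.9% or less.

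Base composition was moderate. The first 2 kb of the canonical transcripts had a median of 57.3% G and C, against 52.2% over 19819 genes, and a median GC skew (excess of G over C on the coding strand as a share of both) of 0.12 against 0.04. The 9 persistent clusters had a median of 49.1% G and C, against 42.8% over the persistent clusters of chromosomes 1 to 22 and X, and the 9 late clusters 44.5% against 43.3%. The part of base composition in these results was not tested.

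The last comparison asked whether peak density in these windows changed between 10 and 20 min. EIF4A3, whose late cluster chose the list, is counted in it, and the list was drawn up with these data known. The counts of members are therefore given without a test. Covered bases relative to the library were higher in both CPT20 libraries than in both CPT10 libraries for 9 of 10 members, against 18.1% of 17931 windows, and EIF4A2 was the exception. For peak density this held for 6 of 10 members, against 18.5% of windows, the others being EIF4A2, EIF4A3, EIF5A and EIF1. With all lists limited to the length of the shortest, it held for 5 of 10 members, against 15.6% of windows. No member was lower in both CPT20 libraries in any of these. Over all windows, 2259 of 17931 were lower for covered bases and 2100 of 17931 for peak density. In lists of equal length 1553 of 15010 were lower. With 10 members, none lower is close to these shares.

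The difference did not pass the test across genes. The limma fit called 0 of 17931 windows (0.0%) at an adjusted p under 0.05, and 416 had an unadjusted p under 0.05, of which 281 were higher at 20 min. The log2 difference of 20 minus 10 min was positive for all 10 members, EIF4A3 included, and for 9739 of 17931 windows. It was also positive for 72 of 78 ribosomal protein genes and 32 of 36 other initiation factors. In the other elongation and termination factors this held for 6 of 13, and in the exon junction complex list for 5 of 7. The median over members was 0.47, against 0.03 over all windows tested. The values ran from 0.19 ± 0.24 (SE) in EEF1A1 to 0.80 ± 0.37 (SE) in EIF4A1, and apart from EIF4A3, which is given no test, each had a limma adjusted p of 0.999. Without CPT20 replicate 2, the library with the shortest lists, the median was 0.29 and 8 of 10 members were positive, with EIF1 at -0.39 and EIF4A2 at -0.07. Without CPT20 replicate 1 the median was 0.81 and all 10 were positive. In that fit limma called 291 windows, 17 higher and 274 lower at 20 min, and no member was among them (lowest adjusted p 0.139, for EIF1).

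The other lists did not pass the test either. Of 36 other initiation factors tested, 0 were called in either direction, with a median log2 difference of 0.29 and values from -0.70 ± 0.28 (SE) in EIF4E3 to 1.00 ± 0.34 (SE) in EIF4EBP2, both cap-pathway genes. Of 13 other elongation and termination factors 0 were called (median -0.01), of 7 genes in the exon junction complex list 0 (median 0.14), and of 78 ribosomal protein genes 0 (median 0.35).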

How the data were processed

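END-seq libraries of HCT116 cells were analysed from the deposited peak lists of 4 CPT libraries, 8 in all because the strands are listed apart. The members and the gene lists were chosen with earlier results of these data known. According to the study's methods, reads were trimmed with Trim Galore, aligned to hg19 with Bowtie2 and filtered for mapping quality with SAMtools, and the authors called peaks with MACS2 per library and strand against the control, without pooling replicates. Per peak, the deposited score is 10 times the −log10 q-value with decimals dropped, the deposited fold is the linear ratio of the summit to the expected height, and the deposited −log10 p and −log10 q-values belong to the summit. The summit offset is deposited too. Whole fragment heights were recovered from the fold values, which are PCR products without molecular identifiers.

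Windows, sites and clusters were computed with Python 3.11.15 on GRCh37 with GENCODE release 44. The study's blacklist and its read count test against control were not repeated, so classes rest on presence in the lists. Windows with at least 20 peaks were tested with limma 3.58.1 (R 4.3.3) on log2(relative peak density + 0.1), trend on peak number, Benjamini-Hochberg over 17931 windows. The fit was tested on simulated data. All members were named, and per class the 2 clusters of best worst rank were given in full. Alternatives were −log10 q of at least 3 or 10, lists of equal length, no flanks, other pairing distances (50 or 500 bp), covered bases in place of peaks, the surrounding 1 Mb as reference, a pseudocount of 0.5, no minimum number of peaks, the replicate number as a block, and each library left out. Replicates are biological according to the study's text, and 2 per group limit the precision. The sequence of 1 named cluster is not reported here. The study's methods list the samples as 2 experiments, each with all 3 conditions, without tying the labels' replicate numbers to them, and same-numbered libraries had correlated deviations (r = 0.24 over windows, 2 pairs).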

Additional observations from a re-analysis of the deposited data

How the results depend on the processing

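The count of windows called between 20 and 10 min was 0 in all alternatives except those leaving out a library, where it ranged from 0 to 291 (the 291 without CPT20 replicate 1). With the replicate number as a block (replicate block) limma called 0 windows, with 1357 at an unadjusted p under 0.05. The block changed no call. Of 129 alternative member differences, 123 had the same sign and the same side of the threshold. This count says little about stability. The replicate block and the lack of a minimum number of peaks leave these differences unchanged by construction, and the main fit called no window. In lists of equal length the median over members was 0.20, against 0.47 in the main fit. The 6 of opposite sign were EIF4A3 (-0.027) and EEF1A1 (-0.038) in lists of equal length, EIF4A2 and EIF1 without CPT20 replicate 2 (with 1 library left out, EIF4A2 ranged from -0.070 to 1.06 and EIF1 from -0.39 to 1.27), EIF1 (-0.18) without flanks, and EIF4G1 (-3.28) at a −log10 q of at least 10, where EIF5A had too few peaks to be tested. The cause was not tested.

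Cluster counts moved most with the libraries left out, from 9 to 15 for persistent, from 2 to 31 for transient and from 3 to 49 for late clusters. With 1 library left out, that time needs a site in 1 library instead of 2. Members with a cluster ranged from 9 to 10. At a −log10 q of at least 10 there were 4 persistent, 0 transient and 1 late clusters in 4 members. Transient clusters numbered 0 at a −log10 q of at least 3 and in lists of equal length, 1 without flanks and 6 with pairing under 500 bp.

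The median relative density of members, 2.01 at 10 min and 2.87 at 20 min, was 2.87 and 3.75 at a −log10 q of at least 3, 8.58 and 15.1 at 10, 2.76 and 3.98 without flanks, and 3.08 and 4.94 for covered bases. In lists of equal length it was 2.79 at 10 min. The share of member peaks from 0 to 2 kb, 11.5% at 10 min and 9.94% at 20 min, was 14.5% at 10 min at a −log10 q of at least 3, 18.01% and 17.1% at 10, 17.02% and 14.97% without flanks, 33.0% and 30.8% from 0 to 5 kb, and 14.3% at 10 min in lists of equal length. The median local ratio, 1.85 at 10 min and 2.85 at 20 min, was 2.56 at 10 min at a −log10 q of at least 3, 8.16 and 14.1 at 10, 2.69 in lists of equal length and 2.62 without flanks at 10 min. With 1 library left out the density ranged from 1.82 to 2.203 at 10 min and from 2.31 to 3.43 at 20 min.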
